A study of Mus musculus with 4 samples.

Results

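Interleukin 2 (IL-2), the chains of its receptor, the transcription factors STAT5A and STAT5B and 4 inhibitors of cytokine signalling were followed in activated mouse CD4+ T cells given interferon alpha (IFNa). The 10 genes were chosen by name: Il2, Il2ra, Il2rb, Il2rg, Stat5a, Stat5b, Cish, Socs1, Socs2 and Socs3. Each was read from the array row whose annotation lists that symbol and no other, taking the row with the highest mean where there were several. This gave values for 9 of the 10 genes, from an array that gave single-symbol rows to 19752 genes, and all 9 were among the 10699 genes tested. Il2rg, the gamma chain that several cytokine receptors share, had no row of its own and was not analysed here.

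CD4+ T cells were taken by negative selection from spleens of male C57BL/6 mice aged 6 weeks and activated for 48 h with beads carrying antibodies to CD3 and CD28. The baseline group held 2 arrays of cells labelled untreated, and 1 array each came from cells cultured afterwards with IFNa at 100 U/ml for 2 h or for 8 h. No label ties the baseline samples to different mice or cultures, and p-values therefore reflect only how far these arrays differ, possibly for technical reasons. No untreated array of the later times was analysed here, so IFNa and the further hours in culture cannot be told apart. The preparation note of both IFNa samples also names JAK inhibitors as present or absent, without saying which holds for these arrays, and the part of such an inhibitor in the results was not tested.

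Activated CD4+ T cells make IL-2 and also respond to it. IL-2 binds a receptor of the alpha chain (Il2ra, CD25), the beta chain (Il2rb, CD122) and the gamma chain, and the kinases JAK1 and JAK3 on that receptor phosphorylate STAT5, which enters the nucleus and binds DNA. Among the genes that STAT5 raises are Il2ra itself and the inhibitors Cish, Socs1, Socs2 and Socs3, whose proteins damp signalling at cytokine receptors and JAK kinases. Il2 transcription is driven by factors downstream of the T cell receptor and CD28, such as NFAT, AP-1 and NF-kappaB.

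Promoter sequence next to the start of transcription is shown for Cish, Socs3 and Socs1, because it holds letters of the kind that STAT proteins or interferon-responsive factors bind, and for Il2, which has none of them there. The sequences are from RefSeq on GRCm38.p6, which had a window from 250 bases before to 50 after the start for 8 of the 10 members, all but Il2rb and Socs2. Each is written 5′ to 3′ on the gene's own strand, and position 1 is the first transcribed base. Capitals mark matches on either strand to TTCNNNGAA, the STAT-type palindrome, in Cish and Socs3, to GAAA followed by any 2 bases and GAAA, of the interferon-stimulated response element type, in Socs1, and to GGAAA, the core bound by NFAT, in Il2.
Cish, chr9:107296559-107296678, plus strand: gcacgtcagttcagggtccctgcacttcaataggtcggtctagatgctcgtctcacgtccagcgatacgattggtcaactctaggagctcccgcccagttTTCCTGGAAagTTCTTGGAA
Socs3, chr11:117969427-117969546, minus strand: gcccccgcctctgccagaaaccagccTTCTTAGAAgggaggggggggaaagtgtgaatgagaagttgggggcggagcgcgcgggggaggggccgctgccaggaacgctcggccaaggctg
Socs1, chr16:10785537-10785656, minus strand: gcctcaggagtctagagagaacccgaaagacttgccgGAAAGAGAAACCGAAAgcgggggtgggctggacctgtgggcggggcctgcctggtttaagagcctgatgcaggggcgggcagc
Il2, chr3:37125955-37126114, minus strand: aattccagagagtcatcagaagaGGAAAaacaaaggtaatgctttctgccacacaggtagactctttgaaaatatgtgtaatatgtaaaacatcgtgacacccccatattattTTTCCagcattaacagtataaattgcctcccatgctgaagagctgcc

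In Cish the 2 STAT-type matches began at positions 1 and 12, and in Socs3 the single match began at position -154. TTCNNNGAA was found in 8.30% of 32851 windows of this length and was present more than once, as in Cish, in 0.457%. The 2 matches to the interferon-type motif in Socs1 began at positions -83 and -77 and overlap each other. That motif occurred in 3.44% of windows, and more than once in 0.225%. GGAAA occurred in 61.3% of windows and more than once in 26.7%, and the 2 matches in Il2 began at positions -137 and -47. In Cish, GGAAA matches overlapped the STAT-type ones. TGANTCA, the AP-1 type site, was in no member's window and in 7.81% of all. A match is a description of letters, and binding was not measured.

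The 9 interferon-induced genes with a row were higher on both IFNa arrays, with median log2 differences from baseline of 3.15 at 2 h and 3.02 at 8 h and all 9 called each time. The largest differences were those of Rtp4 (4.14), Ifit3 (3.27), Usp18 (3.22) and Rsad2 (3.18) at 2 h and of Rtp4 (4.24), Ifit3 (3.53), Irf7 (3.23) and Rsad2 (3.22) at 8 h. None of the 9 was called between the times, where Mx1 (-0.88) and Mx2 (-0.81) had the largest values. Of 9 CD4+ T cell markers, 8 had a row and all 8 lay above the array's median on all 4 arrays, and none was called at either time. Their summed intensity was 36735 and 41593 on the untreated arrays, 39920.4 at 2 h and 44483 at 8 h. Of the B cell markers 6 of 7 with a row also lay above the median on all arrays (sums 3332 and 3379.9 untreated, 3215 at 2 h and 3910.0 at 8 h), and their part in the results was not tested. Of the other lists this held for Cd8b1 of 2 CD8 markers, Lyz2 and Cd68 of 8 myeloid markers, Eomes of 6 natural killer markers, and 0 of 7 neutrophil or erythroid markers. The intensities of the upper part of each array were not equal, with a 75th percentile of 574 on the 8 h array against 769 on the 2 h array and 669 and 730 on the untreated ones. Over all tested genes the median log2 difference came to 0.06 at 2 h, -0.16 at 8 h and -0.25 between 8 h and 2 h, and members are read against it.

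At 8 h, Il2, Cish, Socs2 and Socs1 were lower than at baseline and lower than at 2 h. Socs3, the measured receptor chains Il2ra and Il2rb, and the STAT5 genes were not called in either comparison. At 2 h no member passed the test. A gene is called here at an adjusted p under 0.05 in a limma fit over all tested genes, with Benjamini-Hochberg adjustment. The spread in that fit comes from the baseline pair alone (1 residual degree of freedom), and each IFNa array is assumed to vary as they do. Of all tested genes, 1.09% were called higher and 0.00935% lower at 2 h, 0.654% higher and 3.35% lower at 8 h, and 1.46% higher and 10.8% lower at 8 h against 2 h.

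**Figure D1:**
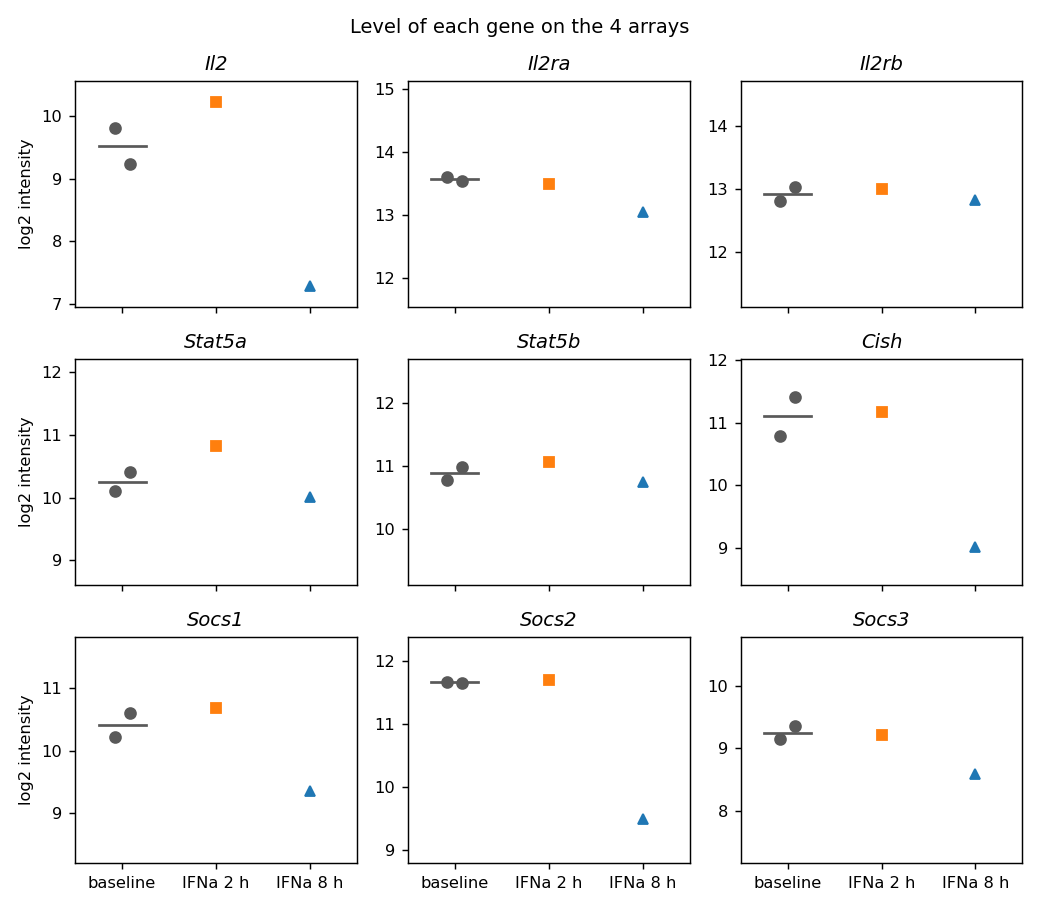
Log2 of the deposited intensity of the 9 measured members on each of the 4 arrays (baseline 1, baseline 2, IFNa 2 h, IFNa 8 h). Il2, Cish, Socs1 and Socs2 show their lowest point on the 8 h array by 0.87 to 2.17 log2 units below the next lowest array, whereas Il2rb, Stat5a and Stat5b stay within 0.10 of their lowest other array.

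Il2 encodes the T cell growth factor itself. Its intensity was 898 and 600.1 in the untreated pair, 1189 at 2 h and 156 at 8 h. The 2 h array was thus the highest and the 8 h array the lowest of the 4, with no overlap with baseline on either side. At 2 h the log2 difference from baseline was 0.70 (SE 0.27, 95% interval 0.09 to 1.30), with an adjusted p of 0.359 in limma, so the higher value at 2 h did not pass. At 8 h it was -2.23 (SE 0.27, interval -2.84 to -1.63, adjusted p 0.00508), or 4.70-fold lower, and Il2 ranked 7 from the lowest of the 10699 tested genes. Between 8 h and 2 h the difference was -2.93 (SE 0.31, adjusted p 0.00786), or 7.62-fold. On the 8 h array Il2 lay at the 42.2 percentile of all rows, below the array's median, so it passed the filter on low values through the other 3 arrays. Its low value there is near the level of dim rows. A fold to such a level may be understated, which was not tested. In RNA from a whole culture, fewer cells making Il2 and less Il2 RNA per cell cannot be told apart.

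Il2ra encodes the alpha chain that gives the receptor its high affinity. It measured 12446 and 11813 in the untreated pair, 11506 at 2 h and 8480.2 at 8 h. The 8 h array was the lowest, below both baseline arrays. The log2 difference at 8 h was -0.52 (SE 0.20, interval -0.98 to -0.05, adjusted p 0.168), and it was not called. Regulatory T cells carry Il2ra constitutively, and all 8 of their markers lay above the median on all 4 arrays. Those markers summed to 10489 and 11506 in the untreated pair, 11512 at 2 h and 8163 at 8 h, with Foxp3, their defining factor, at 633 and 745, then 658 and 779. Gpr83 was the 1 marker of that list called, at -1.70 at 8 h. The part of these cells in the Il2ra values was not tested.

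Il2rb encodes the signalling beta chain that IL-15 also uses. It measured 7155 and 8336 in the untreated pair, 8143 at 2 h and 7261 at 8 h. Both IFNa arrays lay between the baseline arrays. Its log2 difference at 8 h was -0.09 with an interval of -0.57 to 0.39 (adjusted p 0.823), so a fall of the size seen for Il2 lies outside the interval.

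Stat5a and Stat5b encode the paired transcription factors that carry the signal. Stat5a measured 1101 and 1351 in the untreated pair, 1798 at 2 h and 1024 at 8 h. The 2 h array was the highest and the 8 h array the lowest, only 0.10 log2 units under the lower baseline array. The difference from baseline was 0.56 at 2 h (SE 0.22, interval 0.06 to 1.06, adjusted p 0.372) and -0.25 at 8 h (SE 0.22, adjusted p 0.502). Between 8 h and 2 h it was -0.81 (SE 0.25, interval -1.39 to -0.23, adjusted p 0.0653), which missed the threshold, and passed it when the arrays were centred on their medians (adjusted p 0.0208). Stat5b measured 1765 and 2029 in the untreated pair, 2139.7 at 2 h and 1723 at 8 h. It kept the same order of arrays over a narrower range, with a difference at 8 h of -0.13 (interval -0.61 to 0.34, adjusted p 0.723).

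Cish encodes CIS, which binds activated cytokine receptors, the IL-2 receptor among them. It measured 1772 and 2717 in the untreated pair, 2310.3 at 2 h and 519 at 8 h. The 2 h array lay between the baseline arrays, and the 8 h array lay 1.77 log2 units under the lower of them. At 2 h the difference was 0.07 (SE 0.27, interval -0.55 to 0.70, adjusted p 0.929). At 8 h it was -2.08 (SE 0.27, interval -2.70 to -1.46, adjusted p 0.00802), or 4.23-fold lower. Against 2 h it was -2.15 (SE 0.31, adjusted p 0.0114).

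Socs2 encodes a receptor-directed inhibitor best known from growth hormone signalling. It measured 3264 and 3203 in the untreated pair, 3319.6 at 2 h and 713 at 8 h. The first 3 arrays were close together and the 8 h array stood 2.17 log2 units under the lowest of them, the widest such gap of any member. The difference from baseline was 0.04 at 2 h (interval -0.42 to 0.50, adjusted p 0.952) and -2.18 at 8 h (SE 0.20, interval -2.64 to -1.72, adjusted p 0.00159), or 4.53-fold lower. Between 8 h and 2 h it was -2.22 (SE 0.23, adjusted p 0.00786). A second row of Socs2, not used in the fit, read 693 and 621 in the untreated pair, 606 at 2 h and 214 at 8 h, with the 8 h array lowest there too.

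Socs1 encodes an inhibitor of JAK kinases that both IL-2 and interferons can induce. It measured 1190.4 and 1545 in the untreated pair, 1631 at 2 h and 653 at 8 h. The 2 h array was the highest and the 8 h array the lowest, by 0.87 log2 units. The difference was 0.27 at 2 h (SE 0.23, interval -0.26 to 0.79, adjusted p 0.658). It was -1.05 at 8 h (SE 0.23, interval -1.58 to -0.53, adjusted p 0.0452), or 2.08-fold lower, and -1.32 between 8 h and 2 h (SE 0.27, adjusted p 0.0239). The call at 8 h was close to the threshold and was lost with no filter on dim genes (adjusted p 0.0970) and with a stricter filter at the 60th percentile (adjusted p 0.0590).

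Socs3 encodes an inhibitor of receptors that signal through gp130 and of the JAKs bound to them. It measured 567 and 656 in the untreated pair, 592 at 2 h and 387 at 8 h. The 8 h array was again the lowest, with the 2 h array between the baseline arrays. Its difference at 8 h was -0.65 (SE 0.21, interval -1.14 to -0.17, adjusted p 0.116), which was not called. A second, dimmer row of Socs3 read 214 and 197 in the untreated pair, 166 at 2 h and 185 at 8 h, where the 2 h array was the lowest, so the 2 rows of Socs3 disagree on the order.

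**Figure D2:**
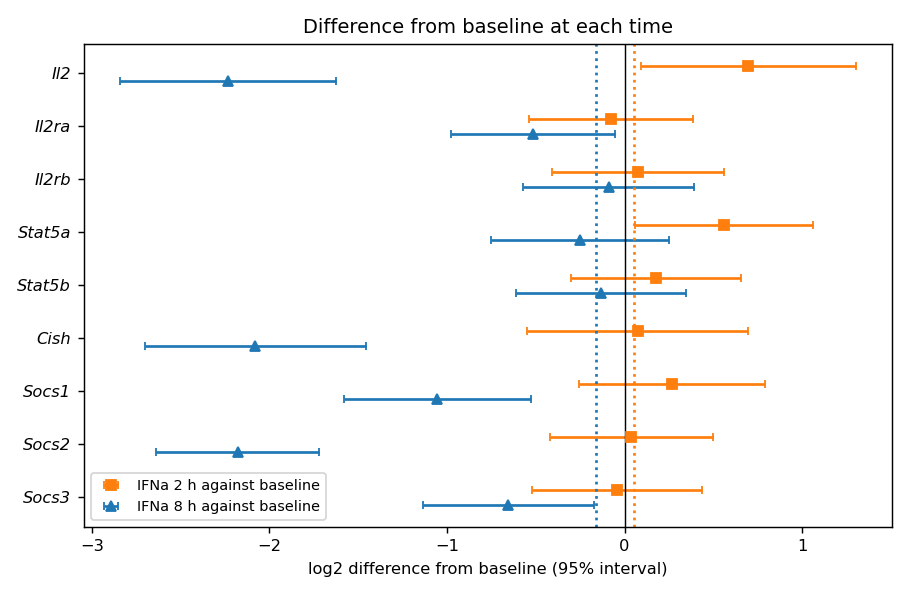
Log2 difference from baseline of each measured member at 2 h (squares) and at 8 h (triangles), with the 95% interval of the limma fit. The dotted lines are the medians of all tested genes at each time. The symbols do not mark calls. Il2, Cish, Socs1 and Socs2 were called lower at 8 h at an adjusted p under 0.05, and no member was called at 2 h.

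Over the 9 measured members, 0 were called at 2 h, where 1.09% of all tested genes were higher and 0.00935% lower, and 2 members, Il2 and Stat5a, had an unadjusted limma p under 0.05, as did 1298 genes in all. The 4 members called at 8 h against baseline were all lower, where 3.35% of all tested genes were called lower. The same 4 were called lower against 2 h, where 10.8% were. All 4 were lower in both comparisons, as were 2.92% of tested genes, and the comparisons share the 8 h array. The median log2 difference of the members was 0.08 at 2 h, -0.65 at 8 h and -0.81 between 8 h and 2 h, beside 0.06, -0.16 and -0.25 over all tested genes. The 8 h array was the lowest of the 4 for 8 members, all but Il2rb, which also held for 51.0% of tested genes. It lay below both baseline arrays for the same 8, beside 55.9% of tested genes. The 2 h array lay above both baseline arrays for 5 members, beside 44.5% of tested genes.

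**Figure D3:**
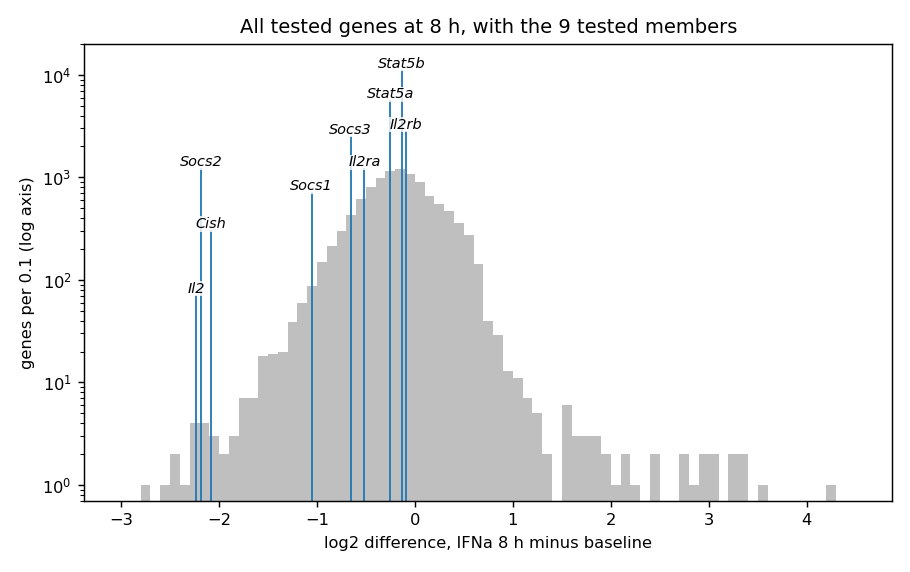
Log2 difference of every tested gene at 8 h against baseline, with the measured members marked. Il2 (-2.23), Socs2 (-2.18) and Cish (-2.08) lie at the lower edge of all 10699 genes, Socs1 (-1.05) lies nearer the body, and Il2rb (-0.09) lies close to the median of -0.16.

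Whether Cish and the Socs genes follow Il2 was read at each step between the arrays. At 8 h, Il2, Socs2 and Cish were lower by like amounts (-2.23, -2.18 and -2.08), Socs1 by less (-1.05), and Socs3 was at -0.65 without a call. At 2 h, Il2 lay above both baseline arrays (0.70), whereas Cish was at 0.07, Socs2 at 0.04 and Socs3 at -0.04, and Socs1 at 0.27, none of them called, Il2 included. These 2 h values depended on which baseline array was used: without baseline array 1 Il2 was at 0.99 and Cish at -0.23, and without baseline array 2 they were at 0.41 and 0.38. Between the baseline arrays, Il2 was lower on the second (-0.58), while Cish (0.62), Socs1 (0.38) and Socs3 (0.21) were higher there and Socs2 differed by -0.03. Cish and Il2 therefore ran in opposite directions between the untreated arrays, by amounts above the median absolute difference of 0.18 between those arrays. That median is a midpoint over genes and not a bound on array noise. No label gives a difference between the 2 untreated arrays, and the cause was not tested.

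Likeness to Il2 was measured as the root mean square distance between log2 profiles over the 4 arrays, each centred on its own mean, and every other tested gene was ranked by it. Socs2 was at 0.353, rank 4 of 10698. Cish was at 0.518, rank 38, and Socs1 at 0.688, rank 256. Socs3 (0.891) ranked 1788, Il2ra (0.929) 2433 and Stat5a (0.933) 2497, and Stat5b and Il2rb ranked 5016 and 6120. Pearson's r with Il2 over the same 4 arrays was 0.956 for Socs2, 0.904 for Socs1, 0.889 for Cish and 0.854 for Socs3. By r those genes ranked only 611, 1491, 1738 and 2311. These values describe 4 arrays and carry no test. On the 8 h array the centred value was -1.85 for Il2, -1.64 for Socs2, -1.58 for Cish and -0.86 for Socs1. The distance ranks thus rest largely on the 8 h differences given above and are not separate evidence.

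The 8 genes nearest to Il2 were Cyp51, Naf1, Idi1, Socs2, Lif, Ccr8, Egln3 and Nr4a3. Cyp51 and Idi1 are enzymes of sterol synthesis, at -2.14 and -2.28 at 8 h, and Naf1, an assembly factor of small nucleolar ribonucleoproteins, was at -2.17. Lif, a cytokine of the IL-6 family, was at -2.09, and Egln3, an oxygen-sensing prolyl hydroxylase, at -2.32. Ccr8, a chemokine receptor, and Nr4a3, a nuclear receptor induced by T cell receptor signals, were at 1.35 and 1.66 at 2 h and at -1.46 and -1.99 at 8 h. The 2 h array was the highest and the 8 h array the lowest, as for Il2, in Cyp51, Naf1, Socs2, Lif, Ccr8 and Nr4a3. The size of the 2 h difference was not shared: it was 0.70 for Il2, 0.20 for Cyp51 and Lif, 0.11 for Naf1 and 0.04 for Socs2. Idi1 and Egln3 were at -0.005 and -0.28. In the second row of Socs2 the 2 h array (606) was below both baseline arrays (693 and 621).

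**Figure D4:**
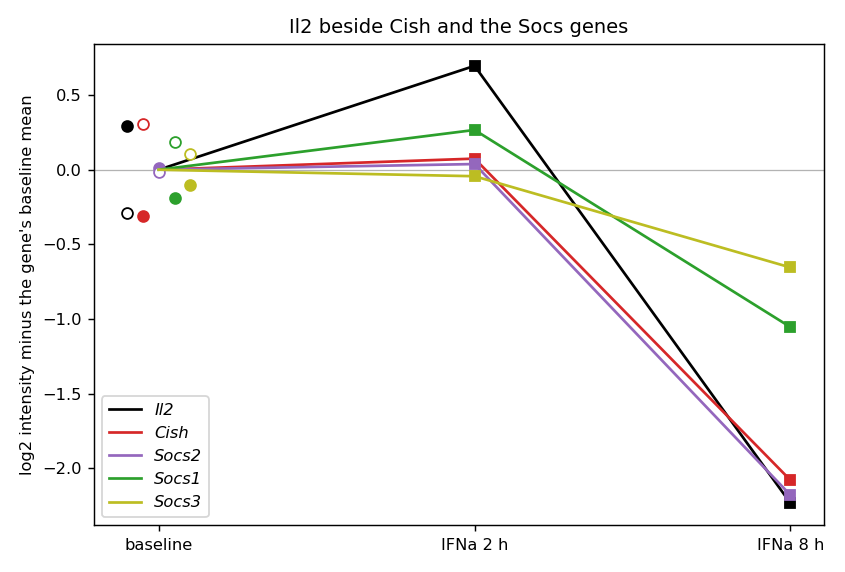
Log2 intensity of Il2, Cish, Socs1, Socs2 and Socs3 on the 4 arrays, minus each gene's own baseline mean. The filled dot is baseline 1, the open dot is baseline 2, and squares are the 2 h and 8 h arrays. Lines run from the baseline mean. Each gene is lowest on the 8 h array, while among the other 3 arrays Cish is highest on baseline 2, where Il2 is lowest of those 3.

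The relay from the receptor to the nucleus, given by 18 genes of JAK, Ras, PI3-kinase and phosphatase steps, had 13 members with a row. Of these, 0 were called at 2 h (1.09% of all tested genes higher, 0.00935% lower) or at 8 h (0.654% higher, 3.35% lower), and 1 of 13 was called between 2 h and 8 h, where 10.8% of all tested genes were lower. That 1 was Ptpn11, the phosphatase SHP-2, which fell (-0.90, adjusted p 0.0492 in limma). The largest differences from baseline that were not called were Shc1 (1.04, SE 0.37) and Pik3r1 (0.77) at 2 h and Ptpn11 (-0.50) and Map2k1 (-0.45) at 8 h. For Shc1 the untreated arrays differed widely, at 404 and 838, beside 1199 at 2 h. The medians were 0.18, -0.27 and -0.46 in the 3 comparisons. Among cytokines and receptors that use the same gamma chain, 7 of 10 were tested (Il7, Il15 and Il21 were dim). At 2 h none was called, and the largest values were Il9 (-0.53) and Il4ra (-0.42). For Il9 the untreated arrays read 386 and 204, beside 194 at 2 h. Il4, a cytokine of helper T cells, read 577 and 575 in the untreated pair, 598 at 2 h and 222 at 8 h. It fell at 8 h (-1.37, SE 0.20, adjusted p 0.0128), and Il4 (-1.43) and Il15ra (-0.91), the IL-15 receptor alpha chain, fell between 2 h and 8 h, the other 5 tested genes not being called.

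Genes that IL-2 and STAT5 are known to raise in T cells were represented by 31 genes, all tested. At 2 h Dusp5, a phosphatase of ERK kinases, was the only 1 called (1.57, SE 0.24, adjusted p 0.0183). Of all tested genes, 1.09% were called higher and 0.00935% lower at 2 h. At 8 h 6 of the 31 were lower and 0 higher, beside 3.35% and 0.654% of all tested genes. The largest were Lta, a cytokine of the tumour necrosis factor family (-1.74, adjusted p 0.00451), Cdk6, a cell cycle kinase (-1.47, adjusted p 0.0136), the transcription factor Nfil3 (-1.46, adjusted p 0.0102) and Il12rb2, a chain of the IL-12 receptor (-1.28, adjusted p 0.0174). Between 2 h and 8 h 11 fell and 0 rose, beside 10.8% and 1.46% of all tested genes, led by Dusp5 (-2.02), Il12rb2 (-1.99), Cdk6 (-1.91) and Dusp6 (-1.77). The medians were 0.26, -0.51 and -0.65, and 26 of 31 lay under the all-gene median at 8 h. Foxp3, also a STAT5 target, was at 0.18 at 8 h without a call.

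Genes that IL-2 and STAT5 are known to lower were given by 9 genes, of which 7 had a row. None of the 7 was called against baseline at either time, with medians of 0.37 at 2 h and 0.22 at 8 h. Of all tested genes, 1.09% were called higher and 0.00935% lower at 2 h, and 0.654% higher and 3.35% lower at 8 h. The largest values were Il6ra (0.92) and Bcl6 (0.89) at 2 h and Il7r (0.68, adjusted p 0.0977) and Il6ra (0.57) at 8 h. Il7r also stands among the gamma chain genes. Bcl6, a repressor that drives the follicular helper T cell programme, fell between 2 h and 8 h (-0.96, adjusted p 0.0382). It was the only 1 of the 7 called there, where 10.8% of all tested genes were lower.

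Of 26 regulators of Il2 transcription, 24 had a row (not Nfkb1 or Pou2f1). Fosl2, an AP-1 subunit, rose at 2 h (1.18, adjusted p 0.0346). At 8 h Jun, the central AP-1 subunit, fell (-1.38, adjusted p 0.0220), as did Crem (-0.995, adjusted p 0.0383), whose products bind cyclic AMP response elements. Between 2 h and 8 h 5 of the 24 fell, led by Crem (-2.05), Jun (-1.69), Fosl2 (-1.46) and Egr1 (-1.26). Of all tested genes, 1.09% were called higher at 2 h, 3.35% lower at 8 h and 10.8% lower between the times. The list's median was 0.24 at 2 h, 0.01 at 8 h and -0.26 between the times, beside 0.06, -0.16 and -0.25 over all tested genes. Of the 8 other SOCS and PIAS genes none was called against baseline, with Socs4 at 0.55 and Socs6 at 0.54 at 2 h and at -0.54 and -0.43 at 8 h. Both fell between 2 h and 8 h (Socs4 -1.09, adjusted p 0.0278, and Socs6 -0.97, adjusted p 0.0459). They were 2 of 8, where 10.8% of all tested genes were lower. The median of the 8 was -0.20 there, beside -0.25 over all tested genes. Of the 4 other STAT genes with a row, Stat2, a partner in the interferon-activated complex, rose at 2 h (1.42, adjusted p 0.0261) and was at 0.88 at 8 h without a call. At 8 h none of the 4 was called, with Stat3 at -0.33, nor between 2 h and 8 h, with Stat3 at -0.62 and Stat2 at -0.54.

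**Figure D5:**
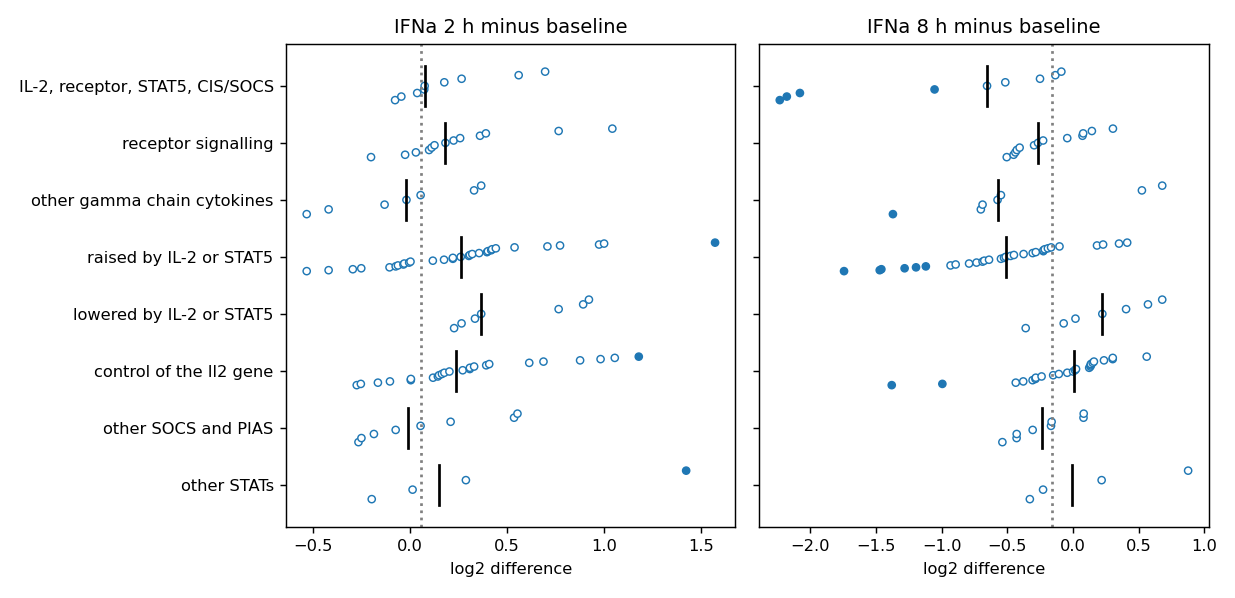
Log2 difference from baseline of each tested gene of the pathway lists, at 2 h and at 8 h. Filled points are called, black bars are list medians and dotted lines are the median of all tested genes. The genes raised by IL-2 and STAT5 have a median of -0.51 at 8 h with 6 called lower, and the genes lowered by them a median of 0.22 with none called.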

How the data were processed

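RNA of 4 samples was measured on Affymetrix Mouse Gene whole-transcript arrays, 1 sample each. The deposited values are linear intensity; the submitters' processing notes name RMA and Affymetrix Power Tools, whose versions are not given in the sources used here. Log2 of the deposited intensity was taken with no pseudocount. Of 24922 rows, 21425 listed 1 gene symbol, and those with several (1399) or none (2098) were left out. Genes above the array's median on at least 1 array were kept. Testing used limma (version 3.58.1, R 4.3.3) with a group-means model over all 4 arrays (two-sided, prior of 7.46 degrees of freedom and SD 0.175). The procedure was also run on simulated data that gave all 4 arrays of a gene the same spread. That run cannot check whether a lone IFNa array varies as the baseline pair does. The number of arrays limits the precision.

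The members and gene lists were chosen with earlier results of these data known. Genes named are all members, the 8 nearest to Il2, and, per list and comparison, up to 4 called genes with the largest difference, or the 2 largest where none was called. Lta, Cdk6 and others of the IL-2 and STAT5 list follow that rule; Foxp3 was named after its value was seen. Alternatives tried were quantile normalization, centring, other filters, a pseudocount of 16, the mean of a gene's rows, an intensity trend, a robust prior and leaving out each baseline array; testing all rows was added after seeing the data. Promoter sequences are from RefSeq, GRCm38.p6.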

Additional observations from a re-analysis of the deposited data

Results flagged for a closer look

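The difference from baseline itself differed between the 2 IFNa times for 4 members, by the direct test of 8 h against 2 h in limma. The log2 difference was -2.93 for Il2 (adjusted p 0.00786), -2.22 for Socs2 (adjusted p 0.00786), -2.15 for Cish (adjusted p 0.0114) and -1.32 for Socs1 (adjusted p 0.0239). In each case 1 array at 8 h was set against 1 array at 2 h. No group had the 4 arrays needed to look for single arrays far from their group.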

How the results depend on the processing

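Il2, Cish and Socs2 were called lower at 8 h, against baseline and against 2 h, in 8 of 9 tested alternatives. The exception was the test of all 24922 rows, where limma called 0 rows in each comparison. Rows at an unadjusted limma p under 0.05 in that test numbered 1141 at 2 h, 2883 at 8 h and 4971 between them. There 0 members were called at 8 h and 0 between 8 h and 2 h. Socs1 was called in 6 of 9 against baseline and 7 of 9 against 2 h. Without baseline replicate 1 or 2, which leaves no test, its difference at 8 h was -0.87 to -1.24, Il2's -1.94 to -2.52 and Cish's -1.77 to -2.39. Genes called at 2 h (118) numbered 441 (332 higher) with quantile normalization and 298 (291 higher) with centring. At 8 h (428, 70 higher) they numbered 1563 (663 higher), 794 (70 higher), 143 (42 higher) with no filter and 255 with the 60th percentile filter. Between 8 h and 2 h (1311, 156 higher) they numbered 2306 (990 higher), 2387 (72 higher) and 415 with no filter. Genes at least 2-fold different numbered 196 at 2 h (144 to 366 without 1 baseline array) and 339 at 8 h (310 to 528 without 1). With all rows the count at 2 h was 432, which is of array rows and not of genes. Quantile normalization moved the all-gene medians at 8 h and between the times to 0.00. With no filter these medians were 0.04 and 0.12, and with centring they were -0.24 and -0.43, so their sign and size depend on the processing. At 2 h uncalled signs turned for Il2rb (-0.018), Cish (-0.048) and Socs2 (-0.070) with quantile normalization, Il2ra (0.024) and Socs3 (0.056) with centring, and Socs2 (-0.038) with the mean of its rows. Leaving out 1 baseline array also turned uncalled signs, for Cish at 2 h (-0.23 to 0.38), Il2rb at 2 h (-0.034 to 0.19) and at 8 h (-0.20 to 0.021), and Socs3 at 2 h (-0.15 to 0.061), and moved Il2 at 2 h to 0.41 or 0.99. The cause was not tested. No paired analysis was possible because the groups share only replicate number 1.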
